A study of Mus musculus with 2 samples.

Results

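Genes that give fat cells their identity, release fatty acids from stored fat and burn them in mitochondria and peroxisomes were compared between dermatitic skin with and without recombinant ZAG. The set was fixed as 40 gene symbols, 20 for adipocyte identity and lipid storage, 5 for lipolysis and 15 for fatty acid oxidation. Probes carrying exactly 1 of these symbols measured 38 of the 40, out of 22180 genes with a symbol of their own. The adipsin gene Cfd had no probe in the annotation used here, and Cpt1b, which encodes the muscle-type carnitine palmitoyltransferase, stood only on a probe listing 3 symbols, so neither has a value. The probes were matched by symbol, not chosen by their values, but the genes of the set were chosen with earlier results of these data known.

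The samples were dorsal skin of 13-week-old female NC/Nga mice, an inbred strain that develops eczema-like dermatitis. All animals carried dermatitis provoked with an ointment of Dermatophagoides farinae, the house dust mite, over 6 weeks, so the control is inflamed skin without ZAG and no healthy skin was compared. The treated group also had topical recombinant zinc-alpha-2-glycoprotein (ZAG), for which the design text gives 1 µg/mL, over 6 weeks. That text counts 3 mice per group, whereas the table has 1 column per group, and the sources used here do not say whether a column is a mouse, a pool or a mean. Each value below therefore has n = 1 array per group, with no replicate error and no test, and all differences are log2 differences, ZAG minus control, between these 2 arrays.

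White adipocytes under the skin store triglyceride in a droplet coated by perilipins and secrete hormones such as adiponectin and leptin. In lipolysis, adipose triglyceride lipase, hormone-sensitive lipase and monoglyceride lipase take off fatty acids in sequence. The acids cross into mitochondria on carnitine and are shortened by beta-oxidation, while peroxisomes handle the longest chains. ZAG is known as a lipid-mobilising protein of fat, and the comparison asks where these genes stand in skin that received it.

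Adipocyte identity and storage genes of the set stood higher on the ZAG array as a block. The oxidation genes of the set stood higher by a smaller amount, and the genes of the first lipases did not. The median log2 difference was 0.41 over 19 adipocyte genes, 0.22 over 14 oxidation genes and 0.04 over 5 lipolysis genes. Over all 22180 genes it was 0.01. This order did not hold outside the set, where the median was 0.14 over 18 further adipocyte genes and 0.20 over 28 further oxidation genes. Of the members above the background gauge (a log2 level of 3.16, from olfactory and vomeronasal receptor genes) on at least 1 array, 19 of 19 adipocyte genes, 12 of 13 oxidation genes and 3 of 5 lipolysis genes were higher by any amount. No adipocyte gene changed sign under median centring, quantile normalization or loess, whereas Cpt2, Acadvl, Hadha and Abhd5, all close to 0, did. Of all 14062 genes that reached the gauge on at least 1 array, 52.4% were higher. The adipocyte genes were all above the gauge on both arrays, including Adipoq, Plin1 and Lep, which define fat cells, and so were the sebaceous gland and dermal fibroblast markers expected of skin on at least 1 array. In bulk skin, more adipocytes and more RNA per adipocyte cannot be told apart, and the shares of other cells were not measured. Marker medians were 0.39 for skeletal muscle, 0.21 for sebaceous gland, -0.37 for endothelium, -0.41 for fibroblasts and -0.61 for macrophages. What the mix of cells adds to the adipocyte values was not tested.

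The differences were not large, and over the 38 genes they ran from -0.15 to 0.57. None of the 38 genes was at least 1.5-fold higher, against 2.30% of all genes above the gauge (Plin1 alone passed after quantile normalization, with a log2 difference of 0.59), and none was at least 1.5-fold lower, against 4.39%. The 2-fold mark was passed by 0 members either way, beside 0.242% of genes higher and 0.960% lower. At a smaller mark, a log2 difference of 0.32, 15 of 19 adipocyte genes were higher, against 12.2% of all genes above the gauge. That mark was passed upward by 1 of 5 lipolysis genes and 1 of 13 oxidation genes above the gauge. No member was lower by that much, against 13.7% of all genes above the gauge. Where a gene had several probes, their log2 differences scattered with an SD of 0.244, which gauges probe error and not variation between mice. This SD covers 591 genes at or above the median level of all genes (3.87), and not dimmer ones.

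**Figure D1:**
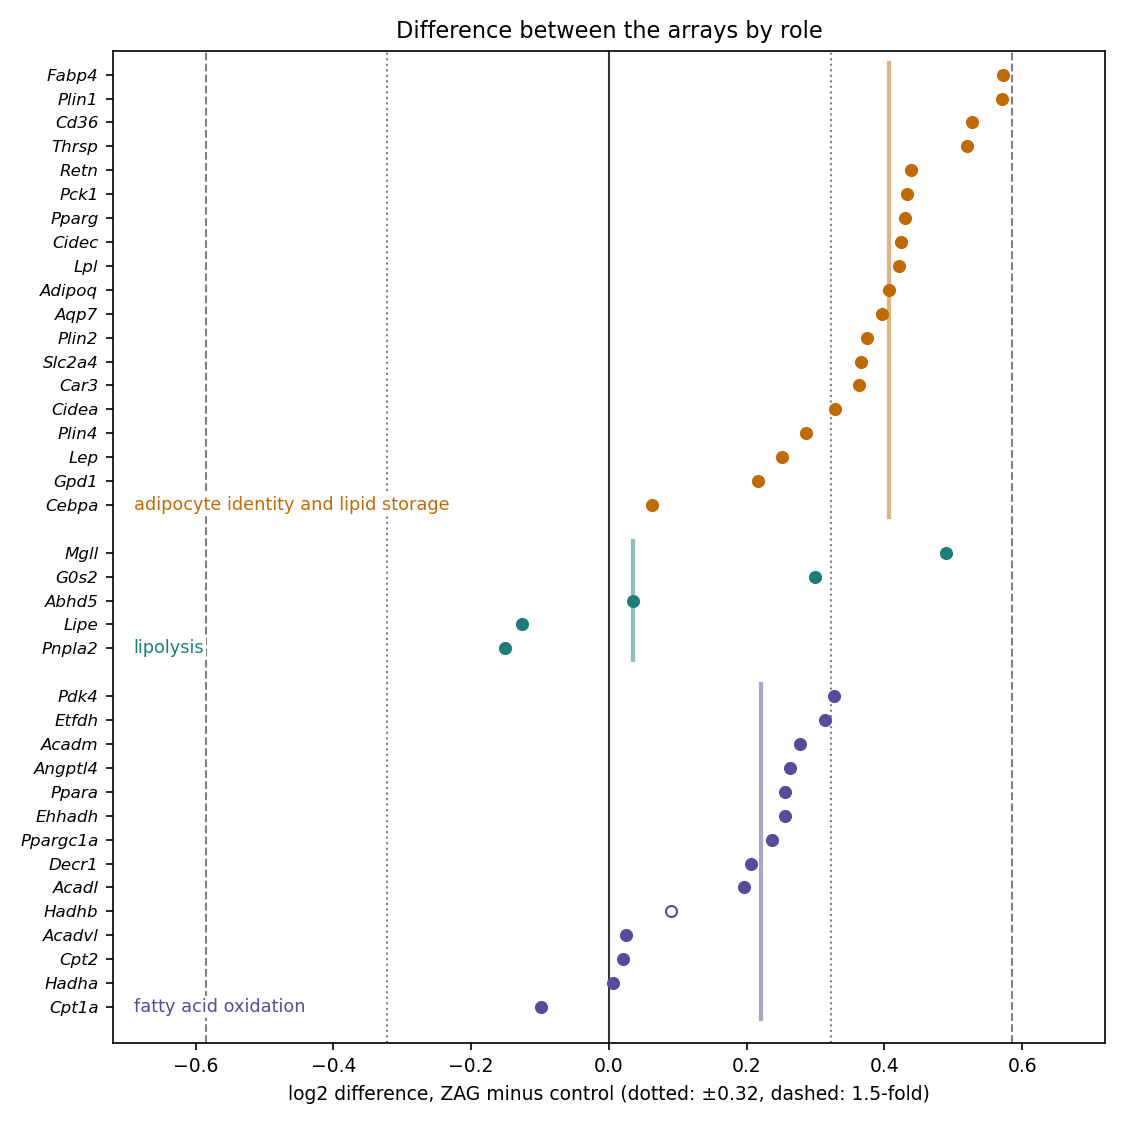
Log2 difference (ZAG minus control, horizontal axis) of each of the 38 measured genes, grouped by role; coloured bars mark the role medians of 0.41, 0.04 and 0.22, dotted lines a difference of 0.32 either way, dashed lines 1.5-fold, and the open circle a gene below the background gauge on both arrays. The adipocyte genes all lie right of 0 and none reaches the dashed line, while the lipase genes Pnpla2 and Lipe lie left of 0.

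The promoters of the adipocyte genes are shown first, because these genes stood higher as a block. Windows of 300 bases, 250 before and 50 after each RefSeq transcription start (build GRCm38.p6), were found for 30 of the 38 measured genes. The motif TTGCNNAA, a core of the C/EBP site read on both strands, occurred in 4 of 17 windows of adipocyte genes (23.5%), those of Lep, Pparg, Plin1 and Cidec, in 0 of 7 windows of lipolysis genes and in 0 of 12 of oxidation genes. It occurs in 10.8% of all 32851 windows in the table. C/EBP factors, of which Cebpa encodes a member, work with PPAR-gamma in adipocyte differentiation. The 250 bases before the start are given 5′ to 3′ on the gene's strand, with the motif in capitals.

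Lep (chr6:29059971-29060220, plus strand): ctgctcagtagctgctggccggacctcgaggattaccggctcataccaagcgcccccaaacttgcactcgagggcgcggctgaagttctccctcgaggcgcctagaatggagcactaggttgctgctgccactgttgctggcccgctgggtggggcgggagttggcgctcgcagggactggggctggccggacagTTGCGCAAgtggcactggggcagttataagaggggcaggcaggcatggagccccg
Plin1 (chr7:79732777-79733026, minus strand): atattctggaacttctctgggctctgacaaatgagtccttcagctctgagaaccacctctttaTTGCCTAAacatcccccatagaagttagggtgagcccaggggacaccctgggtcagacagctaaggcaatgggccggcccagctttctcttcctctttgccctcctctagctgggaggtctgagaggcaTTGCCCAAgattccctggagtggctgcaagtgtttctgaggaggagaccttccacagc
Cidec (chr6:113434765-113435014, minus strand): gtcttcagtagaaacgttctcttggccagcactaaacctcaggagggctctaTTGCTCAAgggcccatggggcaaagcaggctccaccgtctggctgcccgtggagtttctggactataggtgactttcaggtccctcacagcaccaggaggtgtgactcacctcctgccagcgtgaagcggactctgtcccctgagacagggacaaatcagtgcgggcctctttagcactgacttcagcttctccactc
Pparg (chr6:115421816-115422065, plus strand): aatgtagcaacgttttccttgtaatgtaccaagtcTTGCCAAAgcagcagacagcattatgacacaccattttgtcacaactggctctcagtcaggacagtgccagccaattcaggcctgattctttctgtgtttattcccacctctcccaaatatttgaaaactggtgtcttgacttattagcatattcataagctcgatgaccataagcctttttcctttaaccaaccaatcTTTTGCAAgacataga

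In Lep the motif begins 55 bases before the start, and in Plin1 copies begin 187 and 58 bases before it. Pparg has 3 RefSeq starts and Cidec has 2, and several windows give a gene more chances of a match. The windows shown are the ones that hold the motif, which for Pparg is the most downstream start. A match of these letters is a description of the sequence, and binding was not measured.

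The roles also differed in CpG dinucleotides at the start sites. The median number of CpG per gene was 6 in the windows of adipocyte genes, 18 for lipolysis and 17 for oxidation, beside 7 over all genes in the table. Pnpla2 shows a CpG-rich stretch, with its 12 CpG of the 250 bases before the start in capitals, while the same stretch holds 1 CpG in Plin1. The contrast did not hold gene by gene: among the adipocyte genes Lep (19 CpG in the window), Cebpa (29) and a start of Pparg (44) were CpG-rich. Of the 2 starts of the lipase gene Lipe, the windows held 19 and 2 CpG.

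Pnpla2 (chr7:141454938-141455187, plus strand): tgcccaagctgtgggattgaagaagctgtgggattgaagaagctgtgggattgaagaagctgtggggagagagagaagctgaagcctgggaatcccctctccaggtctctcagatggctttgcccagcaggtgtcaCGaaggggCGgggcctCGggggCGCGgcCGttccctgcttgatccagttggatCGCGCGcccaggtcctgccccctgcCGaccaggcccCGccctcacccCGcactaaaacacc

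Of the other motifs searched, the TATA box (TATAAA) was in windows of 2 adipocyte genes, Pparg and Cebpa, and of no gene in the other roles, beside 13.6% of all windows. The E-box CACGTG was in windows of Plin2, Lipe and Mgll (7.15% of all windows). AGGNCANAGGNCA, the direct repeat bound by PPAR and RXR, and TCAAGGTCA, the site of estrogen-related receptors, were in none of the members' windows and in 0.381% and 0.423% of all windows. No match means only that these letters are not within these windows.

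Among the secreted products of fat cells, Adipoq, the adiponectin gene, had a log2 level of 6.12 on the control array and 6.53 on the ZAG array. Retn, the gene of the adipokine resistin, had log2 levels of 8.79 and 9.23. Lep, which encodes leptin, the hormone that signals fat mass to the brain, had log2 levels of 5.69 and 5.94. All of them were higher with ZAG, with log2 differences of 0.41, 0.44 and 0.25, which lay within the probe SD of 0.244 of each other.

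The transcription factor genes of adipogenesis did not move alike. Pparg, the gene of the master regulator of fat cell differentiation, had log2 levels of 5.39 and 5.82, a log2 difference of 0.43. Cebpa, its partner, had log2 levels of 7.97 and 8.04. Its log2 difference of 0.06 was the smallest of the 19 adipocyte genes. Cebpa is also made in epidermis and sebaceous gland, and its source in this skin was not tested.

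The lipid droplet coat genes were all higher. Plin1, the perilipin that guards the droplet of mature adipocytes, had log2 levels of 5.55 and 6.12 (log2 difference 0.57). Plin2, a perilipin made in many cell types, had log2 levels of 7.60 and 7.97, and Plin4, of adipocytes and muscle, had 5.43 and 5.72. The log2 differences were 0.37 in Plin2 and 0.29 in Plin4, and that between Plin1 and Plin2 was within the probe SD of 0.244. Cidec, which drives droplets to fuse into a large unilocular droplet, had log2 levels of 7.69 and 8.12 (difference 0.42). Its relative Cidea, known from brown fat and sebaceous gland, had log2 levels of 7.08 and 7.41 (difference 0.33).

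Genes for taking up fatty acids and glucose were higher too. Fabp4, the gene of the adipocyte fatty acid binding protein, had log2 levels of 10.45 and 11.02. Its log2 difference of 0.57, equal to that of Plin1 at this precision and at the top of the 38 genes, exceeded that of 97.2% of the 14062 genes above the gauge. It was 0.46 after quantile normalization or loess, below the 0.59 and 0.56 of Plin1 under those settings. Cd36, the gene of a fatty acid translocase, had log2 levels of 8.77 and 9.30 (difference 0.53). Lpl, the lipase that frees fatty acids from lipoproteins at the vessel wall, had mean log2 levels of 6.26 and 6.68 over 2 probes, whose log2 differences were 0.54 and 0.30. Slc2a4, the insulin-responsive glucose transporter GLUT4, had log2 levels of 4.48 and 4.85 (difference 0.37).

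Glycerol and storage metabolism followed the same direction. Pck1, which makes glycerol 3-phosphate from pyruvate in fat, had log2 levels of 5.06 and 5.49 (difference 0.43). Aqp7, the glycerol channel of adipocytes, had log2 levels of 4.38 and 4.77 (difference 0.40). Gpd1, the gene of cytosolic glycerol 3-phosphate dehydrogenase, had mean log2 levels of 5.11 and 5.33, and both of its probes gave about the same log2 difference (0.22 and 0.21). Thrsp, a lipogenic gene responsive to thyroid hormone, had log2 levels of 5.75 and 6.27 (difference 0.52). Car3, the carbonic anhydrase abundant in fat and slow muscle, had mean log2 levels of 9.12 and 9.49, with log2 differences of 0.37 and 0.36 from its 2 probes. All 5 of these genes were on the higher side, with Gpd1 the lowest of them.

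**Figure D2:**
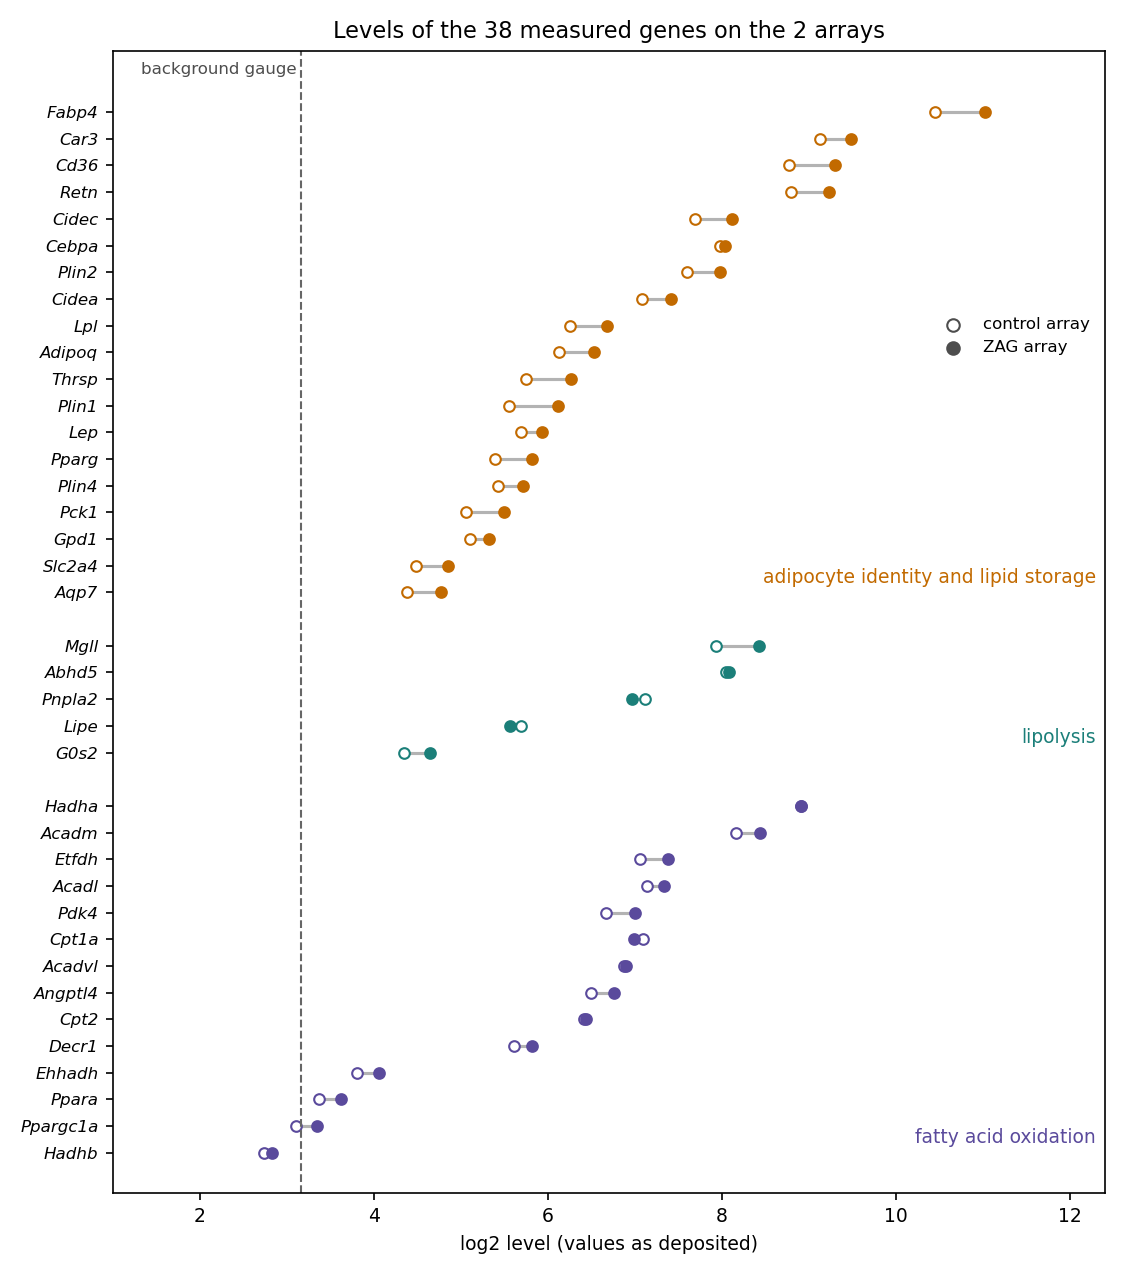
Log2 level (horizontal axis, values as deposited) of the 38 measured genes on the control array (open) and the ZAG array (filled), by role; the dashed line is the background gauge at 3.16. Filled points lie right of open points for all 19 adipocyte genes, left of them for Pnpla2, Lipe and Cpt1a, and Hadhb lies below the gauge on both arrays; levels of different genes come from different probes and are not comparable with each other.

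Lipolysis genes split by step. Pnpla2, the gene of adipose triglyceride lipase, which takes the first fatty acid off, had log2 levels of 7.12 and 6.97. Lipe, the gene of hormone-sensitive lipase, which acts next and is driven by adrenergic signals, had log2 levels of 5.69 and 5.57. Their log2 differences of -0.15 and -0.13 were smaller in size than the probe SD of 0.244, and they were the 2 lowest of all 38 members. Abhd5, the co-activator of Pnpla2, had log2 levels of 8.04 and 8.08, a log2 difference of 0.04.

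The other lipolysis genes were on the higher side. Mgll, the gene of monoglyceride lipase, which releases the last fatty acid and also degrades an endocannabinoid, had log2 levels of 7.93 and 8.42. Its log2 difference of 0.49 was the only one in this role past 0.32. G0s2, the gene of an inhibitor of Pnpla2, had mean log2 levels of 4.34 and 4.64 over 2 probes, with log2 differences of 0.38 from the brighter probe and 0.22 from the dimmer, which was below the gauge on both arrays. The triglyceride lipase and its co-activator thus differed by less than the probe SD while the gene of their inhibitor had a log2 difference of 0.30.

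The 4 regulators of fuel choice in the set were higher by similar amounts. Pdk4, the kinase gene that shuts glucose carbon out of mitochondria in fasting, had log2 levels of 6.67 and 7.0 (difference 0.33). Angptl4, a fasting-induced inhibitor of lipoprotein lipase, had log2 levels of 6.50 and 6.76 (difference 0.26). Ppara, the nuclear receptor gene of the fasting response, had log2 levels of 3.36 and 3.62 (difference 0.26), close to the gauge. Ppargc1a, the coactivator gene PGC-1alpha, had log2 levels of 3.10 and 3.34, below the gauge on the control array and just above it with ZAG (difference 0.24). The median log2 difference of these 4 genes was 0.26, and that of the 10 measured enzymes was 0.14. These enzymes include Hadhb, below the gauge on both arrays (difference 0.09). Without it, the middle of the 9 enzymes was Acadl, at 0.20. Of 3 further regulators, Ppargc1b and Esrra had log2 differences of -0.04 and -0.03, and Ppard, of the wider list, had -0.69.

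The genes of carnitine-dependent entry and of enzymes acting on long chains in mitochondria were close to 0 in 4 cases. Cpt1a, which commits long-chain fatty acids to mitochondria, had log2 levels of 7.09 and 6.99 (difference -0.10) and was the 1 oxidation gene on the lower side. Cpt2, which acts on the inner membrane, had log2 levels of 6.42 and 6.44 (difference 0.02). Acadvl, the very-long-chain acyl-CoA dehydrogenase gene, had log2 levels of 6.87 and 6.90 (difference 0.03). Hadha, the alpha subunit of the trifunctional protein that carries out the later steps on long chains, had log2 levels of 8.91 and 8.91, a log2 difference of 0.01. All 4 of these genes differed by less than the probe SD of 0.244.

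The gene of the beta subunit, Hadhb, could not be read. Its log2 levels were 2.74 and 2.83, under the gauge with and without ZAG, and a direction cannot be given. RefSeq places the starts of Hadha and Hadhb 273 bases apart on opposite strands of chromosome 5, and their 300-base windows share 228 bases. Hadha was well above the gauge on both arrays.

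The other oxidation enzymes of the set were on the higher side. Acadl, the long-chain acyl-CoA dehydrogenase gene, had log2 levels of 7.14 and 7.33 (difference 0.20). Acadm, the medium-chain dehydrogenase gene, had log2 levels of 8.16 and 8.44 (difference 0.28). Etfdh, which hands electrons from these dehydrogenases to ubiquinone, had log2 levels of 7.06 and 7.37 (difference 0.31). Decr1, the reductase gene for unsaturated acyl chains, had log2 levels of 5.60 and 5.81, and Ehhadh, the peroxisomal bifunctional enzyme gene, had 3.81 and 4.06. Their log2 differences were 0.21 and 0.26. None of these enzymes reached the mark of 0.32, and Acadl and Decr1 lay within the probe SD of 0.244.

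Other oxidation genes, 28 of 32 listed being measured and none of them a member, gave a like picture. Their median log2 difference was 0.20, with 22 higher and 6 lower, and 7 were higher by at least 0.32. Of all genes above the gauge, 52.4% were higher by any amount and 12.2% by at least 0.32. Crot, the peroxisomal carnitine octanoyltransferase gene, and Acaa2, the mitochondrial thiolase gene, were the highest with log2 differences of 0.52 and 0.42. Ppard, the gene of the widely expressed PPAR-delta, had log2 levels of 6.76 and 6.07, and it was the only gene of this list at least 1.5-fold lower. Acox3, a peroxisomal oxidase gene, was the next lowest with a log2 difference of -0.40. Within the PPAR family, Pparg was thus higher and Ppard lower, with log2 differences of 0.43 and -0.69. Ppara, close to the gauge on both arrays, had 0.26.

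Members and other genes were also set side by side by step of the pathway, a grouping made after the values were seen. The 7 acyl-CoA dehydrogenase genes had log2 differences of 0.03 (Acadvl), 0.20 (Acadl), 0.22 (Acad9), 0.28 (Acadm), 0.36 (Acadsb), 0.40 (Acads, the short-chain enzyme) and -0.07 (Acad11). The median log2 difference was 0.07 over 4 carnitine shuttle genes, 0.22 over these 7 dehydrogenases, 0.17 over 5 genes from hydration to thiolysis and 0.18 over 3 isomerases and reductases. It was 0.31 over 3 electron transfer genes, 0.24 over 10 peroxisomal genes and 0.24 over 7 regulators. The step medians thus ranged from 0.07 to 0.31, and whether the steps differ was not tested. The probe SD of 0.244 is of single probes and does not gauge medians over several genes. In electron transfer Etfa and Etfdh had log2 differences of 0.39 and 0.31, and Etfb, the partner subunit of Etfa, had 0.00.

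**Figure D3:**
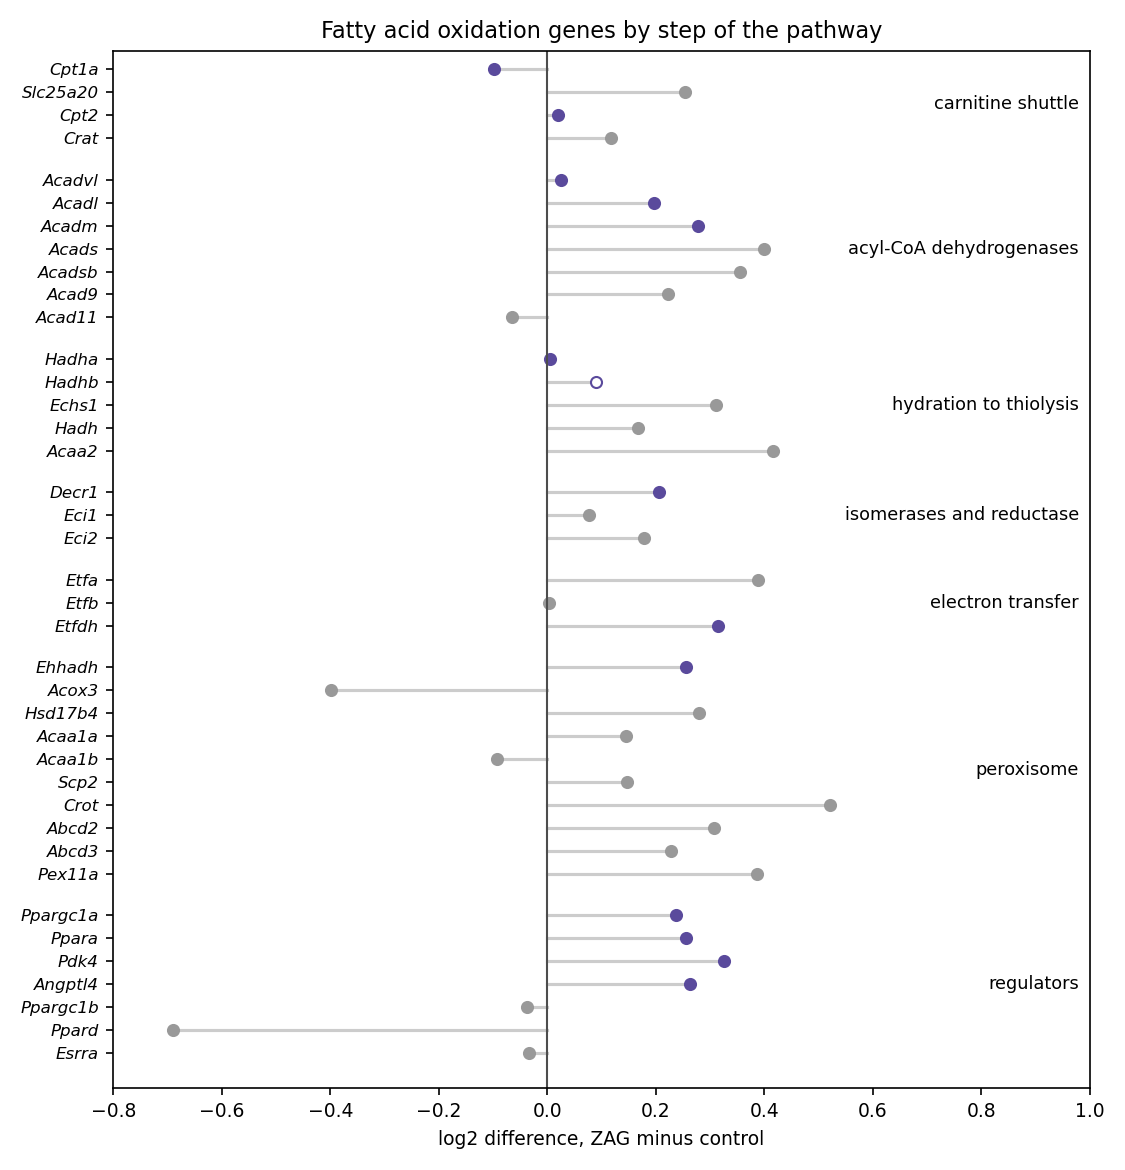
Log2 difference (ZAG minus control, horizontal axis) of fatty acid oxidation genes by step of the pathway, with members in purple, other pathway genes in grey and an open circle for Hadhb, below the background gauge. Cpt1a, Cpt2, Acadvl and Hadha lie near 0, most other enzymes between 0.1 and 0.5, and Ppard at -0.69.

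Further adipocyte genes, 18 of 20 listed, were less uniform than the 19 members. Their median log2 difference was 0.14, with 13 higher and 5 lower, and 0.082 over those at or above the median level of all genes. Of 17 above the gauge, 3 were at least 1.5-fold higher, against 2.30% of all genes above the gauge. Sncg, a synuclein gene abundant in fat cells, had log2 levels of 6.27 and 7.20, a log2 difference of 0.94 that exceeded those of all members. Klf15, a transcription factor gene of adipogenesis and fasting, had a log2 difference of 0.64, and Adig, the small adipocyte gene adipogenin, had 0.61. The lowest were Nat8l, which makes N-acetylaspartate (-0.39), and Insr, the insulin receptor gene (-0.23).

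Triglyceride synthesis genes were mostly on the higher side. The median log2 difference was 0.15 over 8 genes, of which 7 were higher, with 2 below the gauge. Over the 6 genes above the gauge the median was 0.20. Gpam and Agpat2, genes of the first acylation steps, had the highest log2 differences, 0.36 and 0.318. Gpat3, another glycerol 3-phosphate acyltransferase gene, had -0.20, and Lpin1, the phosphatidate phosphatase gene, had 0.08. Of the 6 genes above the gauge, Gpam was past the mark of 0.322 and Agpat2, at 0.318, just short of it.

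**Figure D4:**
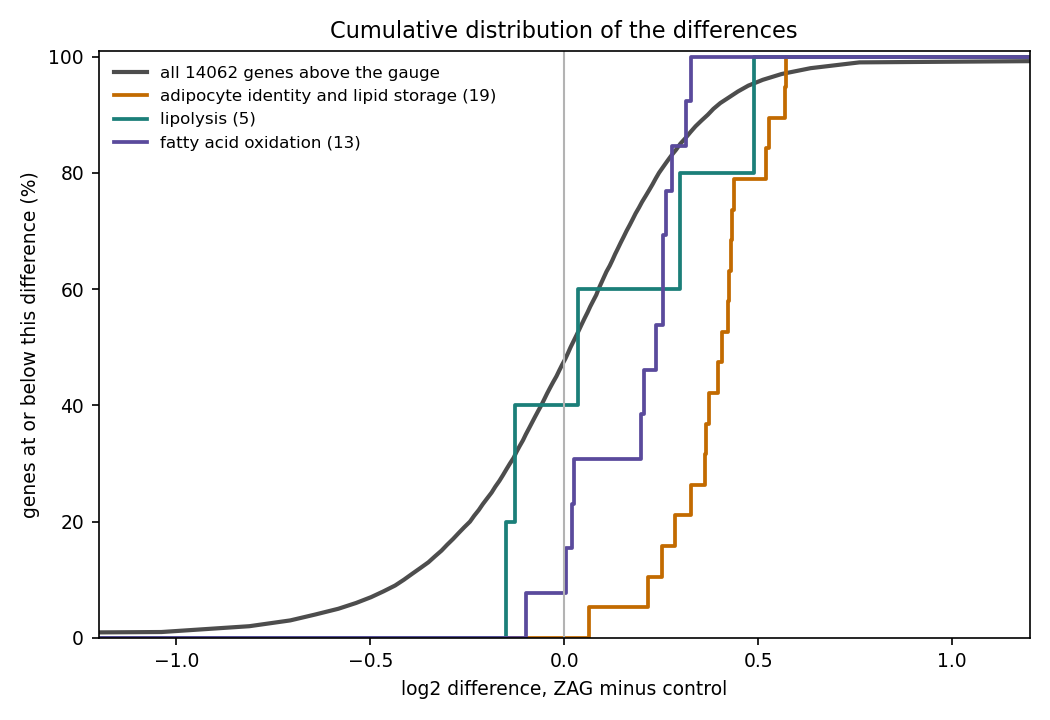
Percent of genes (vertical axis) at or below each log2 difference (ZAG minus control, horizontal axis) for all 14062 genes above the gauge and for the members above it, by role. The adipocyte curve lies wholly right of 0, from 0.06 to 0.57, the oxidation curve runs from -0.10 to 0.33, and the lipolysis curve crosses that of all genes.

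Several members are also made by other cells of skin, so markers of those cells are given beside them. Skeletal muscle shares Slc2a4, Lpl, Cd36, Car3, Ppargc1a and Pdk4 with the members, among others. Its 20 markers had a median log2 difference of 0.39, with 15 higher. Their mean log2 level was 6.34 on the control and 6.64 on the ZAG array. These markers were spread widely, from -1.69 in the fast myosin gene Myh2 and -0.92 in Myh1 to 0.99 in the myosin light chain gene Mylpf and 1.59 in Myh4. Without those 6 members the adipocyte median was unchanged at 0.41 and the oxidation median was 0.20. Plin4, also of muscle, and all 10 measured oxidation enzymes were kept. The part of muscle in the remaining members' values was not tested.

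Sebaceous gland markers had a median log2 difference of 0.21 over 11 genes, with 9 higher, and mean log2 levels of 7.57 and 7.83. They ran from -0.49 in Fabp5 and -0.23 in Scd1 to 0.67 in Cyp2e1 and 0.75 in Scd3. Without Cidea, Plin2 and Thrsp, which the gland also makes, the adipocyte median was 0.41. The part of glands in the other members' values was not tested.

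Endothelium, macrophages and fibroblasts lay on the opposite side from the adipocyte genes. Endothelial markers, from cells that also make Fabp4 and Cd36, had a median log2 difference of -0.37 over 11 genes, with 9 lower, and mean log2 levels of 5.33 and 4.96. Eng and Cdh5 were the lowest (-1.11 and -0.91), whereas Gpihbp1, which anchors lipoprotein lipase on capillaries, was higher beside Lpl (0.46), followed by Tek (0.07). For macrophage markers, from cells that also make Cd36, Lpl and Plin2, the median log2 difference was -0.61 over 10 genes, of which 9 were lower, and the mean log2 levels were 6.73 and 6.12. They ran from -1.94 in Cd14 and -1.0 in Itgam to -0.12 in Mertk and 0.09 in Adgre1.

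Fibroblast markers had a median log2 difference of -0.41 over 10 genes, with 8 lower and mean log2 levels of 9.03 and 8.67. The lowest were Pdgfra (-0.79) and Thy1 (-0.74), and the highest were Dcn (0.04) and Fap (0.40). For adipocyte progenitors the median log2 difference was -0.28 over 8 genes, of which 6 were lower, and the mean log2 levels were 5.67 and 5.36. Among them Pi16 and Pdgfrb had -0.92 and -0.84, and Dlk1 and Dpp4 had 0.08 and 0.42. The lists for mature fat cells and for their progenitors had medians of opposite sign on these arrays. The progenitor median had the same sign as those of fibroblasts and endothelium, and whether it reads progenitors apart from those cells was not tested.

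Brown fat genes gave no uniform reading. Ucp1, the uncoupling protein gene that defines brown fat, had log2 levels of 2.47 and 2.51, and like Prdm16 and Lhx8 it stayed under the gauge. Cox7a1 and Cox8b, respiratory chain genes of brown fat and muscle, had log2 differences of 0.76 and 0.38, and Zic1 had 0.34. Dio2, the thyroid hormone deiodinase gene, had log2 levels of 3.82 and 2.97, below the gauge with ZAG. Over all 7 genes the median was 0.24, and the mean log2 levels were 4.05 and 4.18.

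**Figure D5:**
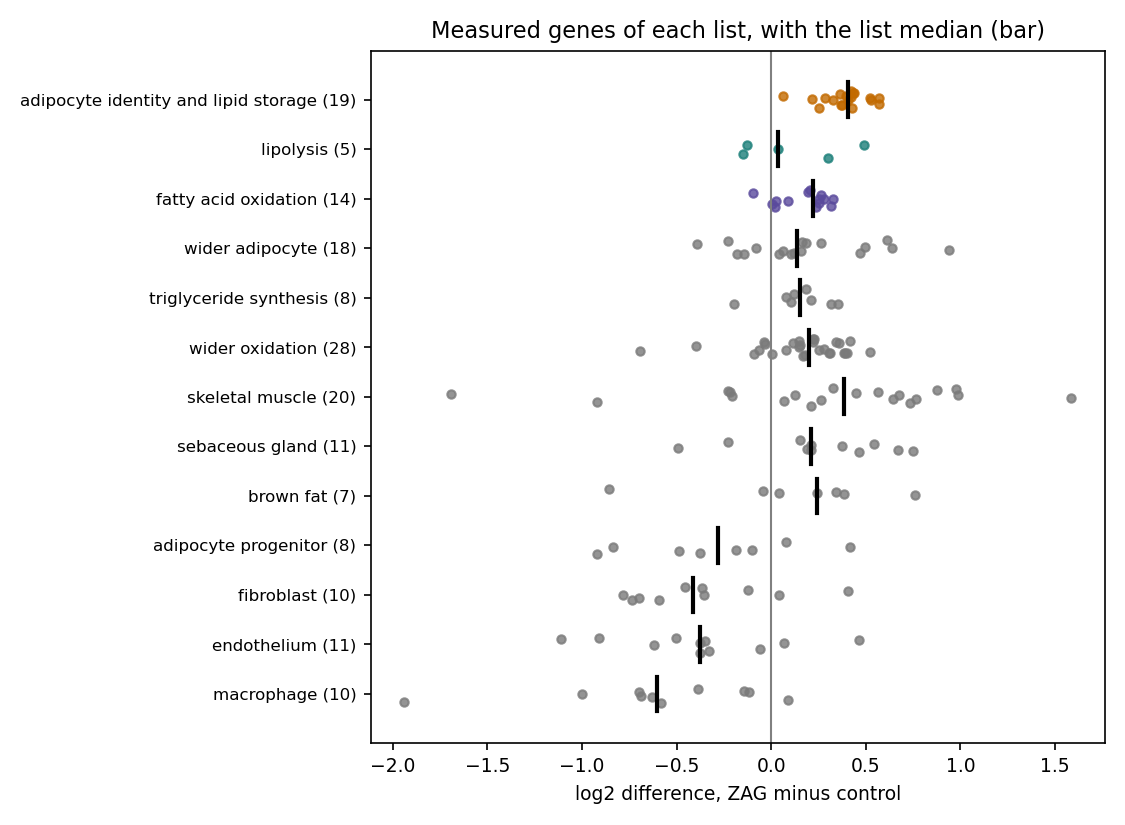
Log2 difference (ZAG minus control, horizontal axis) of every measured gene of the 3 roles, 3 wider lists and 7 marker lists, with the number of genes in brackets and the median as a bar. Points are spread vertically for legibility; the adipocyte genes lie in a narrow band, muscle markers spread from -1.69 to 1.59, and the medians of progenitors, fibroblasts, endothelium and macrophages lie left of 0.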

How the data were processed

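Affymetrix arrays measured RNA of dorsal skin in 1 control and 1 ZAG sample. The authors deposited 33793 probe values per array, on a log2 scale judging by their range (0.866 to 13.19). The sources used here do not name the software or normalization. Array number limits the precision. Only the 23521 probes with 1 gene symbol were used (1814 had several, 8458 none), averaged per gene. All 38 measured members matched a reference gene table (GRCm38.p6) by gene ID and symbol. The background gauge is the 95th percentile over 1394 olfactory and vomeronasal receptor genes of their mean level; fold counts set lower values to it. Members and lists were chosen with earlier results of these data known. Every member is named, with the 2 highest and 2 lowest genes above the gauge of each other list, and those past 1.5-fold in the wider lists. Only the list medians and the fold count were checked on simulated data, with known shifts put in. Promoters came from RefSeq; motifs and the grouping by oxidation step were chosen after seeing the values. Alternatives were median centring, quantile normalization, loess (span 0.3), the brightest probe, filters on members, means and other folds. Tools were Python 3.11.15 with numpy 2.4.6, pandas 2.3.3, matplotlib 3.10.9 and statsmodels 0.14.6.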

Additional observations from a re-analysis of the deposited data

How the results depend on the processing

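Of 85 recomputed values, 82 kept their direction and stayed within 0.1 log2 units of the reported median or within 1.5 times the reported count. Some of the 82 could not change, so this count overstates stability. Dropping members leaves lists that hold none of them as they were, and median centring cannot alter the gap between medians. For the members, the adipocyte median ranged from 0.37 to 0.41, the oxidation median from 0.17 to 0.24 and the gap between them from 0.17 to 0.22. Outside the members, the range was 0.08 to 0.18 for further adipocyte genes and 0.15 to 0.22 for further oxidation genes. The lipolysis median turned to -0.022 after loess, so its sign is not settled. The number of members at least 1.5-fold higher was 1 after quantile normalization in place of 0, and 17 at the mark of 0.32, which admits smaller differences by construction. Abhd5, Cpt2, Acadvl and Hadha, 4 members close to 0, changed sign with the scaling. The limit throughout is 1 array per group.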
